A study of Mus musculus with 6 samples.

Results

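Small nucleolar RNAs (snoRNAs) and the genes that host them were examined in GC-2spd cells with and without exposure to fine particulate matter (PM2.5). The members were taken by name, as genes called Snora, Snord, Scarna or Snhg with a number, plus Gas5 and Nop56, and kept if their FPKM was above 0 in any library. The FPKM of Snord110 and Nop56 in these libraries was already known when the members were chosen by this rule, so the values of both are given as a description only. Of 54886 genes listed in the files, 167 matched by name and 73 were kept. These were 36 of 99 C/D box snoRNA genes, 17 of 42 H/ACA box snoRNA genes, 3 of 9 small Cajal body RNA (scaRNA) genes and all 17 genes classed by name as host genes.

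GC-2spd is an established mouse line derived from spermatocytes, of BALB/c background. The PM2.5 group was exposed to particles at 100 μg/mL, and the control group was kept in normal medium (0 μg/mL), both with an exposure time of 48 h. The study's methods give the particles as the urban reference material SRM 1648a and name PBS for the control as well. Each group had 3 libraries, all of 1 cell line, and the labels do not say whether they came from separate cultures. The study's methods speak of repeated experiments in general, without naming the sequencing libraries, so the p-values measure the spread between these libraries, which may be technical. RNA was measured in bulk, where fewer cells and less RNA per cell cannot be told apart.

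snoRNAs are short RNAs of the nucleolus that guide chemical modification of ribosomal RNA. C/D box snoRNAs bind fibrillarin and guide 2′-O-methylation, H/ACA box snoRNAs bind dyskerin and guide pseudouridylation, and scaRNAs act on spliceosomal RNAs in Cajal bodies. Most mammalian snoRNAs lie in introns and are released from the spliced intron, while many host transcripts such as Gas5 and the Snhg genes are themselves short-lived and degraded by nonsense-mediated decay during translation. Mature snoRNAs have no poly(A) tail, and how RNA was selected for these libraries is not given in the sources used here. Reads of the mature snoRNA and of an unspliced host transcript cannot be told apart in these values.

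The sequences below are those of the snoRNA genes on which the results turn, from GENCODE M21 on build GRCm38, written 5′ to 3′ as DNA. Capitals mark the earliest TGATGA as the C box and the last CTGA as the D box, or the last ACA, near the 3′ end of an H/ACA box snoRNA. In Snord49b another TGATGA overlaps the marked one, and which of them is the C box was not tested. Snord110, in an intron of Nop56, and the next 4 were higher in every PM2.5 library than in every control library on the FPKM scale. Snord49a is the neighbour of Snord49b in the same host, and Snord104 and Snora57 had the most reads.
Snord110 (chr2:130275506-130275573, + strand): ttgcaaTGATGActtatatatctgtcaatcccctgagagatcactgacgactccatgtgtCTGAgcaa
Snord49b (chr11:62603079-62603150, + strand): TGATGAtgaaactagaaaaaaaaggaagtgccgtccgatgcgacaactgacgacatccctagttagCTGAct
Snord43 (chr15:80082847-80082954, - strand): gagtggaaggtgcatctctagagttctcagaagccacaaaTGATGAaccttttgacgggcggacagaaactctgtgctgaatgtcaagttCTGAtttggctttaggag
Snord32a (chr7:45127382-45127464, - strand): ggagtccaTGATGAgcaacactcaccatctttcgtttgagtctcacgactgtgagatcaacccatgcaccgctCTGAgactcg
Snora2b (chr15:98526346-98526482, - strand): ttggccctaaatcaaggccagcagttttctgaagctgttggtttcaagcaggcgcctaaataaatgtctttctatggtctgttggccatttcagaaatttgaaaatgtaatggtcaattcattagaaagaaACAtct
Snord49a (chr11:62603450-62603521, + strand): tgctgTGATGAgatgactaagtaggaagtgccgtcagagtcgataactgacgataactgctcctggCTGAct
Snord104 (chr11:106500993-106501062, + strand): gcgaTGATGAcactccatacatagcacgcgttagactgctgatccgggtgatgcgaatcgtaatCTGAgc
Snora57 (chr19:8888538-8888685, - strand): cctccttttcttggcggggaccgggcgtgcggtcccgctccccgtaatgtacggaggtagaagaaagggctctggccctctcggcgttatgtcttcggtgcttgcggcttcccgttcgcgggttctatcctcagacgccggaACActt

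The boxes followed the names. On the transcribed strand, TGATGA was found in 75 (75.8%) of the 99 C/D box genes and in 0 of the 42 H/ACA box genes. ACA within the last 6 bases was found in 39 (92.9%) of the H/ACA box genes and in 5 (5.05%) of the C/D box genes. The short D box CTGA was found in all 99 C/D box genes and also in 23 (54.8%) of the H/ACA box genes, so it separates the classes less well.

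The files hold FPKM, fragments per length of the gene and depth of the library, and the reads behind them were recovered from the steps between low values. The libraries held 16209352 to 18003201 recovered reads. Control replicate 2 stood apart from the other 5 libraries. Mitochondrial genes took 14.5% of its reads and 1.65% to 1.95% of the reads of the others, and its size factor was 0.769 against 1.06 to 1.11. Main counts and medians below are therefore also given without it. As a check of the cell type, 12 of 15 spermatocyte marker genes never exceeded 3 reads, Dazl, Spo11, Piwil1, Pgk2 and Mael were at 0 in all 6 libraries, and 1 (Hspa2) was abundant enough to test. The summed FPKM of the 15 was 5.15 to 6.01 in the control and 3.50 to 4.98 in the PM2.5 libraries. Of 17 markers of other testis cells, 4 were at 0 everywhere and 4 (Gata4, Star, Acta2 and Cd68) were tested, with a summed FPKM of 63.4 to 124 in the control and 75.4 to 86.2 in the PM2.5 libraries. The part of these differences in the results was not tested.

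Which snoRNA genes had reads at all went with where they lie. Of 76 snoRNA and scaRNA genes that overlap an exon of another gene, 7 (9.21%) had reads, and of 74 that overlap none, 49 (66.2%) had reads. For C/D box genes the counts were 1 of 43 with overlap and 35 of 56 without. For H/ACA box genes they were 5 of 29 and 12 of 13, and for scaRNA genes 1 of 4 and 2 of 5. Of 61 genes lying at least 90% inside exons of a longer gene, 1 (Snora5c, with a single read) was above 0. The same order was seen among other genes typed as snoRNA or scaRNA, with 9 of 170 against 198 of 1239. featureCounts by default leaves out reads that fall on more than 1 gene, and the setting used is not given in the sources used here. A value of 0 for a snoRNA gene inside an annotated exon therefore does not show that the snoRNA was absent.

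**Figure D1:**
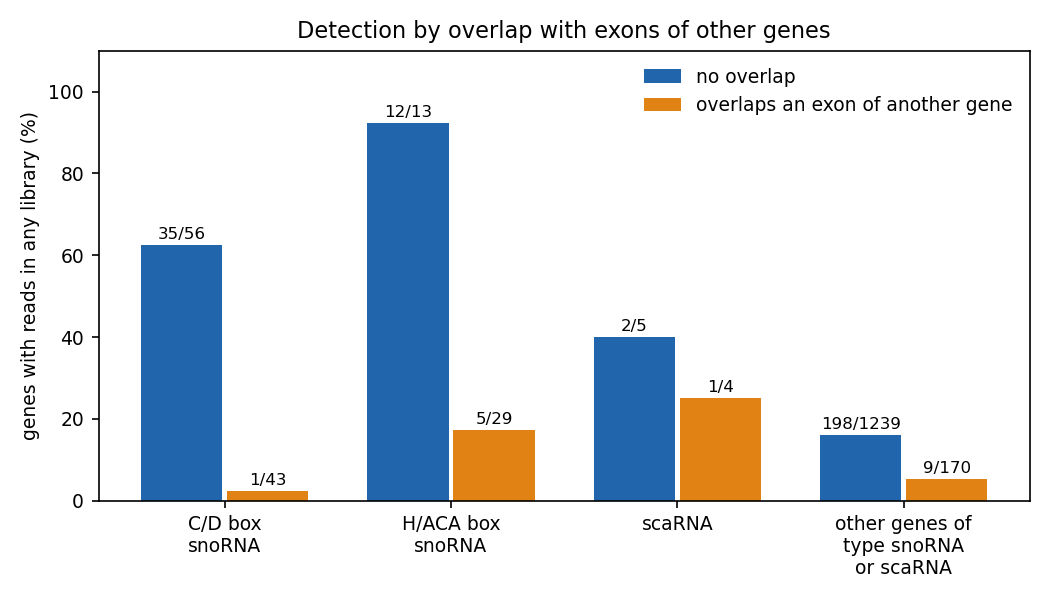
Percentage of snoRNA and scaRNA genes with reads in any of the 6 libraries, for genes that overlap no exon of another gene (blue) and genes that overlap one (orange), with the number of genes with reads over the number of genes above each bar. In each class the blue bar is the higher, with 35 of 56 against 1 of 43 for C/D box genes.

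Nop56 and Gas5 show this in detail. Nop56, a core protein of C/D box particles, holds 5 snoRNA-type genes, of which Snord110 is the only one outside its annotated exons. Snord110 lies 359 bases from the exon before it and 89 bases from the exon after it. Gm24451, with 75.2% of its bases in Nop56 exons, and Gm23187, Gm23650 and Snord57, with 100%, had 0 reads. All 10 snoRNA-type genes of Gas5, among them Snord47, Snord78 and Snord80, lie wholly in Gas5 exons and had 0 reads. Among genes free of exon overlap and with reads, the space between the flanking exons had a median of 562 bases and ranged from 171 to 14294. Of the 25 genes free of overlap that were at 0, 17 were Snord116 copies in Snhg14, and the other 8 were Scarna17, Scarna2, Scarna9, Snora35, Snord118, Snord13, Snord61 and Snord90.

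Counting Snord110, 5 of the 41 snoRNA and scaRNA genes tested were higher in every PM2.5 library than in every control library. Of all genes tested, 8.35% were. Among the 5, only Snord110 was called. Snord110 was at 0 reads in all 3 controls, whereas the PM2.5 libraries held 5, 6 and 8 reads. Against the floor of 3 reads per control library this is at least 1.90-fold higher, and the log2 fold change on the log2(FPKM + 1) scale was 2.61. It was the 1 member of the 53 tested with limma to pass an adjusted p-value of 0.05 and an absolute log2 fold change of 1, where 0.0926% of all 11884 genes tested passed (0.0337% in the higher direction). Those tested were 27 C/D box genes, 13 H/ACA box genes, 1 scaRNA gene and 12 host genes, each averaging 1 FPKM or more over the 6 libraries. Snord110, Snord11, Snord43, Snord88c, Snora2b and Scarna8 reached this mean in the PM2.5 group only, and Snord37, Snord123 and Snora23 in the control group only, so the counts over the genes tested are no support for a difference. Snord110 passed without control replicate 2 but not when any 1 of the other 5 libraries was left out, nor with a pseudocount of 5, without a filter or with voom. The values of Snord110 were known when the members were chosen, so its call is a description and supports nothing about the members.

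In all, 5 of the 53 members tested had an unadjusted limma p-value under 0.05, where 3.8% of all genes tested did. All 5 were higher in PM2.5, where 1.92% of all genes were, and they are Snord110, whose values chose it, and the 4 snoRNAs described next. The same 5 were the members whose groups did not overlap with PM2.5 higher, against 8.35% of all genes, and 0 members were lower without overlap, against 6.85%. The count of members under 0.05 became 14 without control replicate 2, 3 without PM2.5 replicate 1 and 9 without PM2.5 replicate 3, and the share of all genes moved as well, to 15.9%, 1.66% and 5.28%.

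Snord49b, which guides methylation of large-subunit ribosomal RNA, had 2, 4 and 6 reads in control replicates 1 to 3, against 18, 20 and 10 in the PM2.5 libraries in the same order. Every PM2.5 library was above every control library. Its FPKM was 3.47 ± 1.71 in the control and 12.4 ± 4.20 in the PM2.5 group (SD, n = 3), and the log2 fold change was 1.62 (SE 0.42, limma adjusted p = 0.711, unadjusted p = 0.00774).

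Snord43, a C/D box gene that GENCODE M21 types as a miRNA gene, had 1, 0 and 2 reads in the control and 19, 9 and 4 reads in the PM2.5 libraries. The lowest PM2.5 library was only 2 reads above the highest control library. The log2 fold change was 1.98 (SE 0.51, limma adjusted p = 0.716).

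Snord32a, in an intron of the ribosomal protein gene Rpl13a, had 2, 2 and 0 reads in the control and 10, 6 and 4 reads in the PM2.5 libraries. The groups were again close, at 2 and 4 reads. The log2 fold change was 1.49 (SE 0.48, limma adjusted p = 0.875).

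Snora2b, an H/ACA box gene in Kansl2, had 1, 0 and 0 reads in the control and 11, 18 and 1 reads in the PM2.5 libraries. PM2.5 replicate 3, with 1 read, had as many reads as control replicate 1 and lay above it on the FPKM scale by 0.404 against 0.393. The log2 fold change was 1.85 (SE 0.67, limma adjusted p = 0.875). A Kansl2 exon covers 67.2% of Snora2b, and 57.9% of its 31-base sequences are also in Kansl2 transcripts, so its reads may be split with that gene in an uncertain way. No 31-base sequence of Snord110, Snord49b, Snord43 or Snord32a occurs in transcripts of another gene, which holds for 42 of the 56 snoRNA and scaRNA genes with reads.

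**Figure D2:**
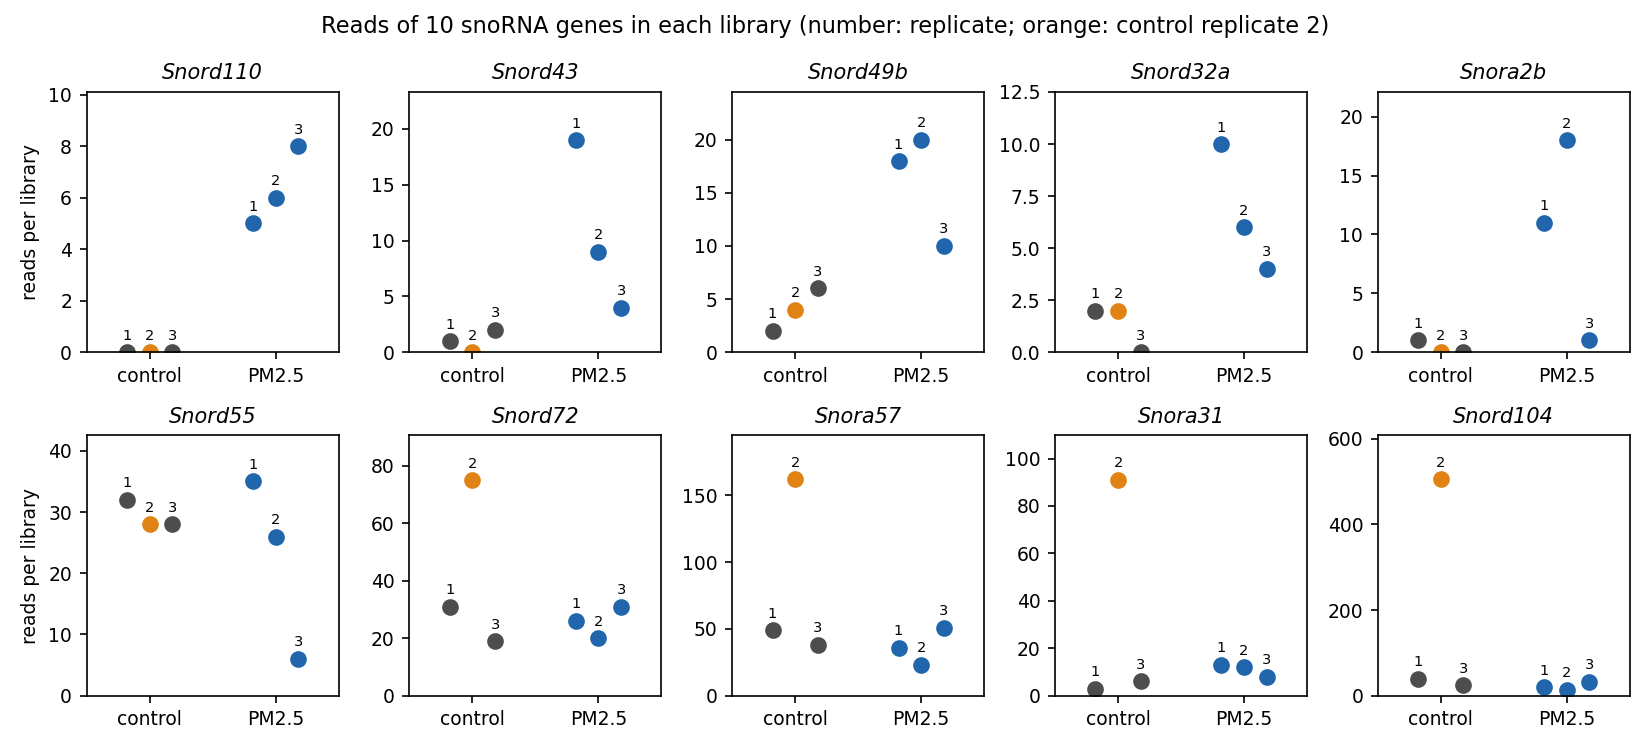
Recovered reads per library for 10 snoRNA genes, with control on the left and PM2.5 on the right of each panel, the replicate number above each point and control replicate 2 in orange. Each panel has its own linear axis from 0. The 5 genes of the upper row were higher in every PM2.5 library on the FPKM scale, and in 4 of the 5 genes of the lower row the highest library is control replicate 2.

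Reads were also absent from 1 group in a few other members. In all, 6 members were at 0 in every control library, and 2 of them exceeded 3 reads in a PM2.5 library. Besides Snord110 that was Snord15a, with 3, 7 and 0 reads in the PM2.5 libraries, at least 1.01-fold above the floor. Snord23, Snord82, Snora36b and Snora5c had 3 reads or fewer in any library and allow no fold. In the other direction, Snhg3 was at 0 in every PM2.5 library, with 1 read in the control, and 86.3% of its exon bases are shared with Rcc1 and other genes. Over all genes listed, control replicate 2 had 18644 above 0, against 19658 to 20360 in the other libraries. The share of all genes at 0 in a whole group is not given here, so these counts of members are no support for a difference.

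Snord49b was among the 12 snoRNA genes with the most reads, and none of the other 11 had an unadjusted p-value under 0.05 over all libraries. Snord104, which has no host gene in the annotation, had 39, 506 and 24 reads in the control and 20, 14 and 33 reads in the PM2.5 libraries. Control replicate 2 was 27.2 times the mean FPKM of the other 5 libraries, and the remaining values of both groups overlapped. The log2 fold change was -1.98 (SE 1.26, limma adjusted p = 0.875), and -0.48 without control replicate 2.

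Snora57, which lies opposite to Lbhd1, had 49, 162 and 38 reads in the control and 36, 23 and 51 reads in the PM2.5 libraries. Snord72, in Rpl37, had 31, 75 and 19 reads against 26, 20 and 31. Snora31, in Tpt1, had 3, 91 and 6 reads against 13, 12 and 8. In all 3 the library with the most reads was control replicate 2. Without it, Snora31 was higher in PM2.5 by a log2 fold change of 1.00 (unadjusted p = 0.0149, limma adjusted p = 0.203).

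Snord91a, in the ribosome assembly gene Tsr1, went the other way in that library, with 31, 0 and 14 reads in the control and 11, 13 and 25 reads in the PM2.5 libraries. Snord55 had 32, 28 and 28 reads against 35, 26 and 6. Snord35a, in Rpl13a, had 5, 41 and 5 reads against 7, 2 and 2. The groups overlapped for each of these 3 genes. The remaining genes among the 12 with the most reads, Snora41, Snora78, Snora21 and Snord49a, had adjusted p-values of 0.876 to 0.928 in limma.

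Summed over all 56 snoRNA and scaRNA genes with reads, RPM (recovered reads relative to those of the library) was 18.3, 68.2 and 17.8 in the control and 23.8, 19.0 and 20.99 in the PM2.5 libraries. Control replicate 2 had the most reads but the fewest genes, with 27 of 56 above 0 against 41 to 49 in the other libraries. Of the 41 genes tested, 22 had a log2 fold change above 0 and 19 below, with a median of 0.03, where the median of all genes tested was 0.02. This median turned to -0.05 with quantile normalization, to -0.08 with a pseudocount of 5 and to -0.19 over the 24 genes with at least 30 reads. The median was 0.23 over the 27 C/D box genes and -0.22 over the 13 H/ACA box genes, and 0.05 and 0.04 without control replicate 2.

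The host genes were uniform in direction, and that direction turned for most of them without control replicate 2. All 12 host genes tested had a log2 fold change below 0, where 48.1% of all genes did, except that Snhg1, Snhg5 and Snhg17 were above 0 when the values were scaled to total reads (a scaling that moved the median of all genes by 0.11), Snhg1 and Snhg5 with quantile normalization, and Snhg17 with a pseudocount of 0.1 and with voom. Leaving out control replicate 2 put 9 of the 12 above 0 (48.0% of all genes) and moved their median from -0.46 to 0.39. None of the 12 had an unadjusted p-value under 0.05 in the fit of all libraries.

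Nop56 had 3184, 21312 and 3048 reads in the control and 4104, 3873 and 4732 reads in the PM2.5 libraries. Its FPKM of 401 in control replicate 2 was 7.82 times the mean of the other 5 libraries, in a library where Snord110 had 0 reads. Every PM2.5 library lay above control replicates 1 and 3. The log2 fold change of Nop56 was -0.62 (SE 0.90) over all libraries and 0.46 without control replicate 2.

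Gas5, a growth arrest-associated long noncoding RNA, had 832, 3410 and 894 reads in the control and 1277, 1115 and 1672 reads in the PM2.5 libraries. The order was that of Nop56, with control replicate 2 the highest and the other 2 controls the lowest. Its log2 fold change was -0.17 (SE 0.68, limma adjusted p = 0.940), and 0.62 without control replicate 2 (unadjusted p = 0.0172, limma adjusted p = 0.216).

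Snhg17 had 325, 1047 and 350 reads against 609, 514 and 545, and Snhg12 had 79, 574 and 81 reads against 132, 117 and 120. Both were higher in every PM2.5 library than in control replicates 1 and 3. Without control replicate 2 their log2 fold changes were 0.58 (unadjusted p = 0.00254, limma adjusted p = 0.104) and 0.45 (unadjusted p = 0.00506, limma adjusted p = 0.130).

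Snhg1, with 677, 1318 and 726 reads against 903, 777 and 1104, Snhg15, with 111, 652 and 119 against 202, 119 and 189, and Snhg20, with 83, 725 and 88 against 158, 112 and 106, were also higher in FPKM in every PM2.5 library than in control replicates 1 and 3. Snhg8, host of Snora24, was the one most raised in control replicate 2, with 256, 2961 and 306 reads against 326, 300 and 255. Its other 5 libraries overlapped. Snhg5, with 475, 514 and 415 reads against 484, 366 and 678, overlapped as well.

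Snhg6, with 307, 709 and 280 reads against 220, 191 and 359, Snhg10, with 32, 103 and 28 against 20, 19 and 46, and Snhg18, with 331, 280 and 303 against 222, 214 and 359, stayed below 0 without control replicate 2, at -0.20, -0.11 and -0.24. For all 3, PM2.5 replicate 3 was above control replicates 1 and 3, and the other 2 PM2.5 libraries were below them. Snhg11, Snhg14, Snhg3, Snhg7os and Snhg9 were below the mean FPKM of 1 and were not tested.

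**Figure D3:**
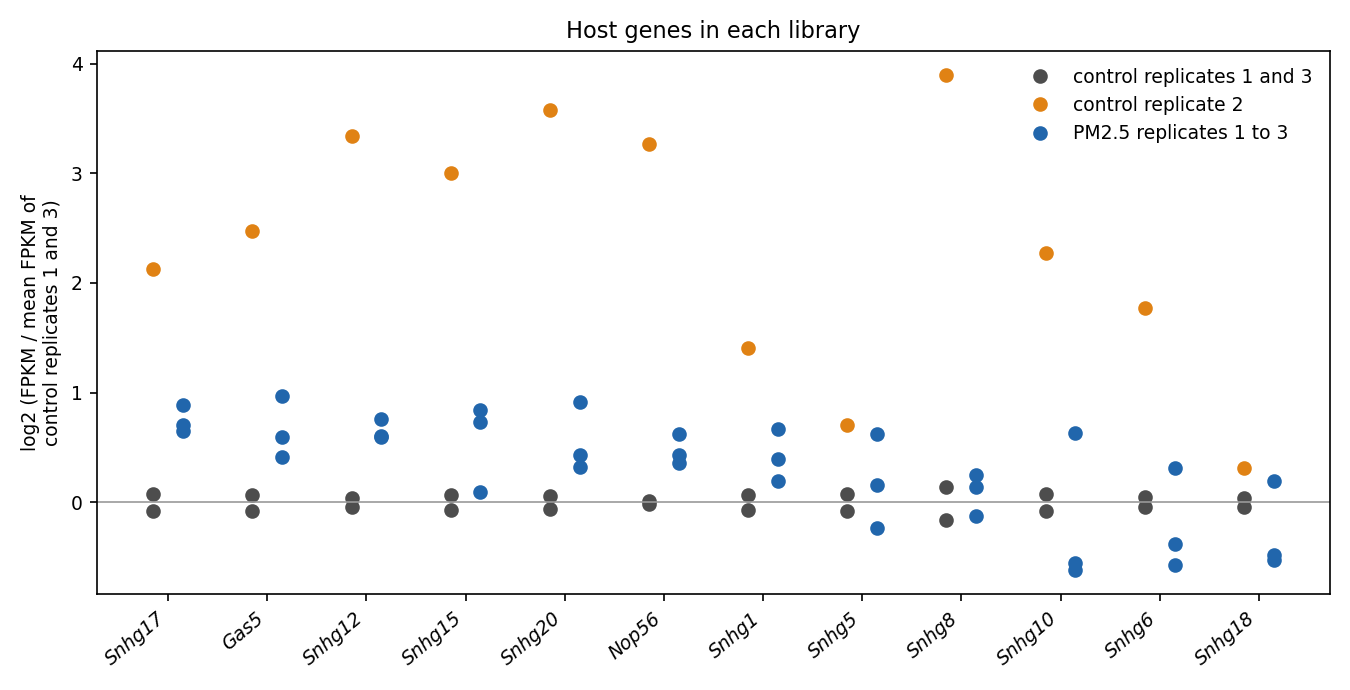
FPKM of the 12 host genes tested in each of the 6 libraries, as log2 of the ratio to the mean of control replicates 1 and 3, with those replicates in grey, control replicate 2 in orange and PM2.5 replicates in blue. The orange point is the highest for all 12 genes, and for 7 genes every blue point lies above both grey points.

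Control replicate 2 was the highest of the 6 libraries for 12 of 12 host genes, and for 4669 of the 11884 genes tested. Its FPKM was a median of 4.52 times the mean of the other 5 libraries for host genes and 0.931 times for all genes. The ratio exceeded 2 for 10 of the 12 host genes, against 21.9% of all genes. Summed over all 17, host genes were at 375, 2080 and 383 RPM in the control and 512, 453 and 582 RPM in the PM2.5 libraries. Without control replicate 2, 17 of the 53 members tested were higher without overlap, where 17.7% of all genes were. Of these 17, 7 were host genes. Lower without overlap was 1 of the 53, where 19.6% of all genes were. In that comparison 14 of the 53 had an unadjusted limma p-value under 0.05, where 15.9% of all genes did. Of the 53, 13 were higher (8.23% of all genes were) and Snora23 was lower. Snord110 remained the 1 member called, where 0.707% of all genes were called.

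Whether a snoRNA gene follows its host was examined in 36 pairs in which both were tested, in 30 host genes of any kind. The direction was the same in 27 pairs, with 17 both higher and 10 both lower, and opposite in 9, with 5 snoRNA genes higher in a host that was lower. In 6 of the pairs the snoRNA gene averaged 1 FPKM only in the PM2.5 group and in 3 only in the control group, which fixes the direction of its mean, and 4 and 1 of these had the direction of the host. Without control replicate 2 the direction was the same in 21 of the 36. Across the 20 pairs with at least 30 reads of the snoRNA it was the same in 17 and, without control replicate 2, in 10. Pearson's r between the 2 log2 fold changes was 0.64 over these 20 pairs and 0.28 without that library, and 0.36 over all 36 (Spearman's rho 0.77, 0.12 and 0.49). These correlations are across genes that share the same 6 libraries and in part the same host, and they carry no test.

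**Figure D4:**
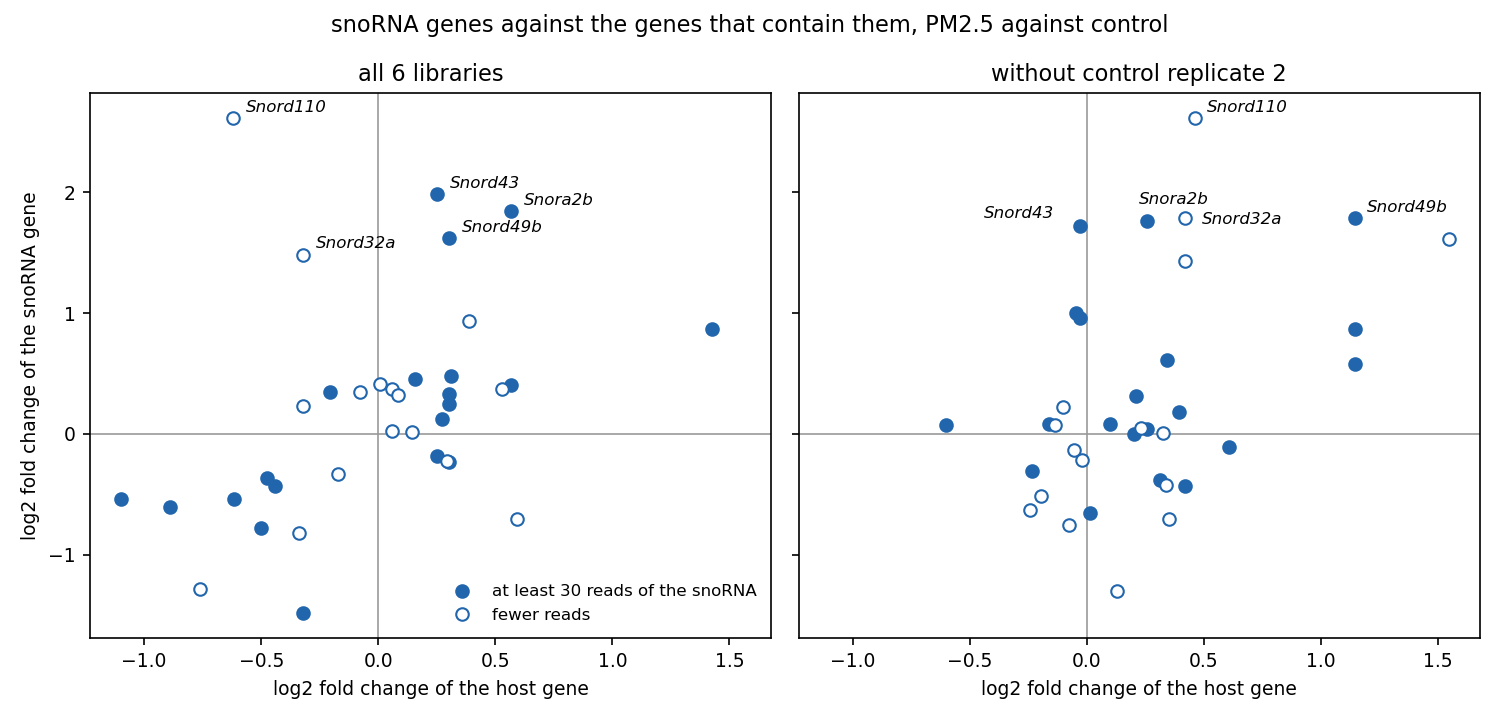
Log2 fold change of 36 snoRNA genes (vertical axis) against that of the gene containing each (horizontal axis), PM2.5 against control, with all 6 libraries on the left and without control replicate 2 on the right. Filled points have at least 30 reads of the snoRNA over all libraries. Points in the lower left and upper right have the same direction, 27 of 36 on the left and 21 of 36 on the right.

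The measured FPKM of a snoRNA gene was mostly far below that of its host. Genes with reads had a median length of 80 bases for C/D box and 132 bases for H/ACA box snoRNAs. How well RNAs this short were captured was not tested, so the ratios below are not ratios of RNA amount. Per length, the mean FPKM of the snoRNA was a median of 6.32% of the host's, from 0.209% for Snord37 in Eef2 to 272% for Snord7 in AA465934, the 1 pair above 100%. Without control replicate 2 the median was 7.08%, and these 2 pairs were at 0.224% and 604%. In 10 of the 20 deeper pairs the host was more than 2 times higher in control replicate 2 than in the mean of the other 5 libraries, and in 6 of these the snoRNA was as well. In the 10 pairs whose host was not, 3 snoRNA genes were. Snord91a and Tsr1 were both low in control replicate 2, at 0 FPKM and 0.864 FPKM, against 6.62 to 17.96 and 17.8 to 24.9 in the other libraries.

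snoRNA genes of 1 host differed from each other in their estimates, many of which had wide standard errors. In 2410006H16Rik, which holds Snord49b, Snord49a and Snord65, the log2 fold changes were 1.62 (SE 0.42), 0.25 (SE 0.80) and 0.33 (SE 0.69). The host was at 0.30 (SE 0.79). Without control replicate 2 they were 1.79, 0.58 and 0.87, with the host at 1.14. Snord49a had 6, 10 and 7 reads in the control and 22, 18 and 2 reads in the PM2.5 libraries. For Snord49b, PM2.5 replicate 3 was the lowest PM2.5 library, with 10 reads against 18 and 20, though above every control. For Snord49a it was the lowest library of all. The FPKM of the host was 42.4, 32.1 and 14.6 in the 3 PM2.5 libraries against 10.96, 72.3 and 12.6 in the control.

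In Rpl13a, Snord32a, Snord34 and Snord35a had log2 fold changes of 1.49 (SE 0.48), 0.23 (SE 1.02) and -1.48 (SE 0.93). The host was at -0.32 (SE 0.63). In Rpl3, Snord43 was at 1.98 (SE 0.51) and Snord83b at -0.18 (SE 0.97), with the host at 0.25 (SE 0.35). In Kansl2, Snora2b was at 1.85 (SE 0.67) and Snora34 at 0.40 (SE 0.69), with the host at 0.57. Without control replicate 2, Snord32a, Snord34, Snord35a and Rpl13a were at 1.79, 1.43, -0.43 and 0.42. Snord43, Snord83b and Rpl3 were then at 1.72, 0.96 and -0.03, and Snora2b, Snora34 and Kansl2 at 1.77, 0.04 and 0.26. The differences between neighbours were not tested.

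The protein genes of snoRNA biology came from the same fit. The 4 core H/ACA box proteins all had a log2 fold change above 0, where 51.9% of all genes tested did, with a median of 0.66. Of the 4, 2 were higher at an unadjusted limma p-value under 0.05, where 1.92% of all genes were. Nop10 had an FPKM of 14.3, 15.4 and 15.5 in the control and 39.9, 46.4 and 19.7 in the PM2.5 libraries (log2 fold change 1.09, SE 0.34, unadjusted p = 0.0185, limma adjusted p = 0.875). Dkc1, the pseudouridine synthase dyskerin, had 18.1, 9.47 and 17.3 FPKM in the control and 25.5, 25.8 and 24.9 FPKM in the PM2.5 libraries (log2 fold change 0.78, SE 0.28, unadjusted p = 0.0318, limma adjusted p = 0.875). Both were higher in every PM2.5 library than in every control library, as were 8.35% of all genes tested. Nhp2 and Gar1 were at 0.54 (SE 0.53) and 0.50 (SE 0.55), and leaving out control replicate 2 moved the median of the 4 to 1.05.

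The 5 C/D box proteins listed were Fbl, Nop56, Nop58 and Snu13, with Rrp9 of the U3 particle. Of these 5, 4 had a log2 fold change above 0, against 51.9% of all genes tested, and none an unadjusted limma p-value under 0.05. Fbl, the methyltransferase fibrillarin, was at 0.27 (SE 0.39), and 0.68 without control replicate 2. Without that library 3 of the 5 C/D box and 3 of the 4 H/ACA box proteins were higher at an unadjusted p-value under 0.05, against 8.23% of all genes. None of the 12 assembly factors, 17 processing and turnover genes, 10 nonsense-mediated decay factors and 12 genes of RNA polymerase I and ribosomal RNA synthesis had an unadjusted p-value under 0.05 in limma. Their medians were 0.13, 0.16, -0.12 and 0.08. When control replicate 2 was left out, the number higher at an unadjusted p-value under 0.05 was 2, 2, 1 and 6, against the same 8.23%, and 0 were lower. Limma called 0 genes of these 6 lists, with or without that library.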

How the data were processed

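RNA from 3 control and 3 PM2.5 libraries was sequenced by the authors as paired-end reads on NovaSeq, mapped with HISAT2 2.0.5 and counted with featureCounts 1.5.0-p3. The authors deposited FPKM per gene, based on gene length. The strand setting is not given in the sources used here. The submitters' processing notes name mm9, while GENCODE M21 exon lengths (GRCm38) turned 98.0% to 98.1% of the values under 50 reads into whole reads (tolerance 0.02). Coordinates are of GRCm38. The steps followed size factors, so the FPKM had been scaled between libraries. One read in a gene of 70 bases was worth 0.770 to 1.10 FPKM.

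limma 3.58.1 (trend and robust, R 4.3.3, statmod 1.5.0) was run on log2(FPKM + 1) for the 11884 genes averaging 1 FPKM or more over all libraries. p-values were adjusted by Benjamini-Hochberg, and a call needed both an adjusted value under 0.05 and a log2 fold change beyond 1 in either direction. The fit was also run on simulated counts with the same spread for every gene and no library standing apart. That run does not cover a library like control replicate 2. Alternatives changed the filter, pseudocount, scaling, test, host assignment, depth and libraries used. In the pairs, a host is the gene containing a snoRNA gene on the same strand. Among the members, the 17 host genes were classed by name, and containing a snoRNA gene was not required. Snhg7os, for instance, contains none of the snoRNA or scaRNA genes matched by name. Groups not overlapping means that every library of one group exceeded every library of the other. Tables and figures were made with Python 3.11.15, numpy 2.4.6, pandas 2.3.3 and matplotlib 3.10.9.

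Members and lists were chosen with earlier results of these data known. Genes named are Snord110, Nop56, Gas5, host genes averaging 1 FPKM or more, the 12 snoRNA genes with the most reads, snoRNA genes in Nop56 or Gas5, members with an unadjusted p-value under 0.05, the genes containing these, and core particle proteins. Other genes were named after their values were seen. One gene that contains a snoRNA gene is not reported here, although its pair is in the counts of pairs.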

Additional observations from a re-analysis of the deposited data

How the results depend on the processing

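The count of members called (1) fell to 0 without a filter, with a filter of at least 30 reads, with a pseudocount of 5, with voom on the recovered reads and with the replicate block, and was 0 to 1 when 1 library was left out (1 without control replicate 2). Members with an unadjusted p-value under 0.05 (5) were 3 with the filter of 30 reads and with voom, and 3 to 14 with 1 library left out. Of all genes, 11 were called, against 0 without a filter, 3 with at least 30 reads, 2 with a pseudocount of 5, 6 when scaled to total reads, 0 with voom and with the replicate block, and 0 to 84 with 1 library left out. The median of the host genes ranged from -0.94 to 0.39 with 1 library left out. Pairs with the same direction were 17 of the 20 with at least 30 reads, by either filter, and 10 of 20 when control replicate 2 was also left out, an alternative chosen after seeing the data. Over the 36 pairs they were 21 to 26 with 1 library left out.

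Deviations from the group means, over the genes tested, correlated at -0.28, 0.18 and 0.25 between same-numbered replicates. Between differently numbered replicates they ran from -0.28 to 0.29. With so few libraries these values do not decide on pairing, and the numbers were not taken as pairs. The paired fit with the replicate block also had 5 members under 0.05.

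Of the 45 named genes tested, 4 turned direction under another scaling, pseudocount or test. With total reads, Snhg1 was at 0.079, Snhg17 at 0.11 and Snhg5 at 0.080. With quantile normalization, Snhg1 was at 0.028, Snhg5 at 0.00044 and Rpl23 at 0.17. Snhg17 was at 0.032 with a pseudocount of 0.1 and at 0.070 with voom. With 1 library left out 22 turned, 19 of them without control replicate 2. The ranges were -0.60 to 0.62 for Gas5, -1.16 to 0.46 for Nop56, -0.31 to 0.40 for Snhg1, -0.26 to 0.17 for Snhg5, -1.89 to 0.089 for Snhg8, -0.95 to 0.45 for Snhg12, -0.93 to 0.48 for Snhg15, -0.34 to 0.58 for Snhg17 and -1.13 to 0.38 for Snhg20. Among snoRNA genes they were -0.11 to 0.84 for Snora21, -1.31 to 1.00 for Snora31, -0.61 to 0.18 for Snora41, -0.95 to 0.39 for Snora78, -0.26 to 1.15 for Snord49a, -1.10 to 0.084 for Snord72 and -0.38 to 1.74 for Snord91a. Among the others they were -0.16 to 1.14 for 2410006H16Rik, -0.070 to 0.23 for Nop58, -0.72 to 0.42 for Rpl13a, -0.62 to 0.61 for Rpl23, -0.028 to 0.40 for Rpl3 and -1.41 to 0.10 for Rpl37. The cause was not tested. Few reads limit the snoRNA values, and intervals of counting error do not cover the spread between libraries.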
